A study of Mus musculus with 9 samples.

Results

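MicroRNAs of the miR-23a and miR-23b clusters were followed across 9 two-channel microRNA arrays of mouse embryonic stem (ES) cells and feeder fibroblasts. Members were all probes named miR-23a, miR-23b, miR-24, miR-27a or miR-27b, with any arm or copy suffix. The rule found 4 of the 206 probes in the deposited table, named miR23a, miR27a, miR24-1 and miR23b, and all 4 had a value on all 9 arrays. No probe of the table used here carries the number 27b, so the miR-23b cluster was read through miR23b alone and through miR24-1, which both clusters encode. In all, 195 of the 206 probes were matched to a mouse microRNA gene.

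Each array set the gel-purified small RNA of a sample against that of wild-type V6.5 ES cells. The samples were V6.5 ES cells homozygous for a Dgcr8 knockout (line 2, 2 arrays, and line 1, 2 arrays), V6.5 ES cells heterozygous for the Dgcr8 knockout (3 arrays), and irradiated mouse embryonic fibroblasts, the feeder cells (2 arrays). Duplicate arrays of a knockout line are hybridisations of 1 line, and the 3 heterozygous arrays came from 2 RNA preparations, with no statement of which arrays share one. The ES cells had been grown on the same kind of feeder and passaged off it before RNA was taken, so the feeder arrays address how far a signal in knockout cells could come from carried-over fibroblasts. The labels do not give the design of the knockout allele, whether a line is 1 clone, or whether the feeder arrays were separate cultures. Where arrays share RNA, p-values measure the spread between hybridisations.

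DGCR8 binds the primary transcript of a microRNA and, with the nuclease DROSHA, releases the hairpin precursor that DICER then cuts to the mature form. The miR-23, miR-27 and miR-24 hairpins lie together in a miR-23a cluster and, as a paralogous copy, in a miR-23b cluster, and each cluster is transcribed as a unit. The microRNAs are abundant in fibroblasts, endothelium and blood cells, where they are known for roles in differentiation, angiogenesis and lipid metabolism.

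The mature sequences show which signals the probes could keep apart, and the seed (bases 2 to 8, the stretch that pairs with targets) is in capitals. They are RefSeq sequences on the mouse build GRCm38.p6, all on the plus strand, and the array's own probe sequences were not used here.
miR-23a-3p (chr8:84208563-84208583): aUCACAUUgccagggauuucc
miR-27a-3p (chr8:84208727-84208747): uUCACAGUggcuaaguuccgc
miR-27b-3p (chr13:63300760-63300780): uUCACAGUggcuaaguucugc
miR-24-3p (chr13:63301251-63301272, the Mir24-1 copy): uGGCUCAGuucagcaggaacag

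The miR-27 paralogues share their seed and 20 of 21 bases, and differ by C19U (miR-27a-3p first, counted from its 5′ end). The seeds of miR-23a-3p and miR-27a-3p share 6 of 7 bases and differ by U7G, counted likewise. The mature miR-24-3p of Mir24-1 and of Mir24-2 is identical over all 22 bases, although the hairpins around it differ, as the next sequences show with the mature 3p arm in capitals.
Mir24-2 hairpin (chr8:84208815-84208921): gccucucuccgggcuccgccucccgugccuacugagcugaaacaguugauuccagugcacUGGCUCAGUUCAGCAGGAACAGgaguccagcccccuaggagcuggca
Mir24-1 hairpin (chr13:63301208-63301275): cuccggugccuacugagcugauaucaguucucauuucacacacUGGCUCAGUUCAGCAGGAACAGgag

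Signal on the miR24-1 probe can therefore come from either cluster despite the copy number in its name. Paralogues as close as the miR-27 pair may also cross-hybridise. The mature miR-23b-3p sequence was missing from the reference used, so the likeness of the miR-23 pair is not shown here. The assignment of miR23a, miR23b and miR27a signal to 1 cluster is therefore uncertain. The miR-23a cluster spans 404 bases of chromosome 8 (84208518 to 84208921, in the order Mir23a, Mir27a, Mir24-2) and overlaps no protein-coding gene of the RefSeq table. The miR-23b cluster spans 792 bases of chromosome 13 (63300484 to 63301275, in the order Mir23b, Mir27b, Mir24-1) and lies within the protein-coding gene Aopep, an aminopeptidase gene.

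All values below are log2 ratios of a sample's own RNA over wild-type ES cell RNA, which the authors had scaled to positive control RNAs. The deposited values were on a log scale whose base and direction no label states. Base 10 rests on 1 array, knockout line 1 replicate 2, on which 90 of 90 low values were base 10 logs of ratios rounded to 4 decimals; on the other 3 knockout arrays only 4 to 9 of 68 to 76 low values did so, and all arrays were taken to share the base. The sign was taken as own over wild type with dye swaps already turned. That direction is likely, not stated: the knockout arrays were strongly negative in both dye orientations. The arrays held values for 84 to 133 of the 206 probes, and 87 mouse probes with enough values were fitted together with limma. Wild-type RNA was always the other channel, so tests against it leave out the spread among wild-type cultures. The fit pools the spread between the 2 knockout lines with that among the heterozygous arrays. Its p-values for knockout cells therefore do not measure agreement between the lines alone. The array does not measure Dgcr8 mRNA, so the knockout itself was not checked here.

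In homozygous knockout cells all 4 members were far below wild type. They fell to between 1.28% and 2.82% of the wild-type signal as the mean of both lines, and all 4 probes were negative on all 4 knockout arrays. As ratios, 70 of 76 probes with a value on all 4 arrays were negative there (92.1%), so the members moved with the bulk of the array. Fewer cells of a type and less RNA per cell cannot be told apart in such bulk samples.

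miR-23a, the first microRNA of its cluster, read -6.56 and -7.28 in knockout line 2 and -6.25 and -5.02 in knockout line 1, against -0.13, 1.51 and -1.33 in heterozygous cells and 2.77 and 2.19 in feeder fibroblasts. The heterozygous arrays were widely spread. The knockout difference from wild type was -6.28 ± 0.91 (SD, n = 2 lines), a 77.5-fold lower signal (limma, Benjamini-Hochberg adjusted p = 1.16e-04).

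miR-27a, the middle microRNA of the miR-23a cluster and known for repressing adipogenic regulators, read -4.64 and -7.47 in knockout line 2 and -5.07 and -5.33 in knockout line 1. It read 0.77, 0.07 and 0.16 in heterozygous cells and 3.96 and 1.60 in feeder fibroblasts. The 2 hybridisations of line 2 were 2.83 apart, the fourth largest gap of 81 probes in that line, and enclosed both arrays of line 1. The knockout difference from wild type was -5.63 ± 0.60 (SD, n = 2 lines), or 49.4-fold lower (limma, adjusted p = 3.29e-06). It was -6.33 without line 2 replicate 1 and -4.92 without line 2 replicate 2, and passed in both cases.

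miR-24, the last microRNA of both clusters and known for targets in the cell cycle, read -5.30 and -5.94 in knockout line 2 and -4.85 and -4.50 in knockout line 1. It read 0.29, 0.02 and 0.35 in heterozygous cells and 3.43 and 0.95 in feeder fibroblasts. Its heterozygous arrays lay close together, and its feeder arrays lay far apart. The knockout difference from wild type was -5.15 ± 0.67 (SD, n = 2 lines), the smallest of the 4, at 35.4-fold lower (limma, adjusted p = 3.42e-06).

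miR-23b, the paralogue of miR-23a at the head of the other cluster, read -7.10 and -7.47 in knockout line 2 and -5.79 and -4.77 in knockout line 1. It read -0.18, 0.58 and -0.73 in heterozygous cells and 3.22 and 1.72 in feeder fibroblasts. Both arrays of line 2 lay below both arrays of line 1. The knockout difference from wild type was -6.29 ± 1.42 (SD, n = 2 lines), or 78.0-fold lower (limma, adjusted p = 3.14e-05). This p also draws on the heterozygous arrays, so it does not measure the spread between the lines alone.

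**Figure D1:**
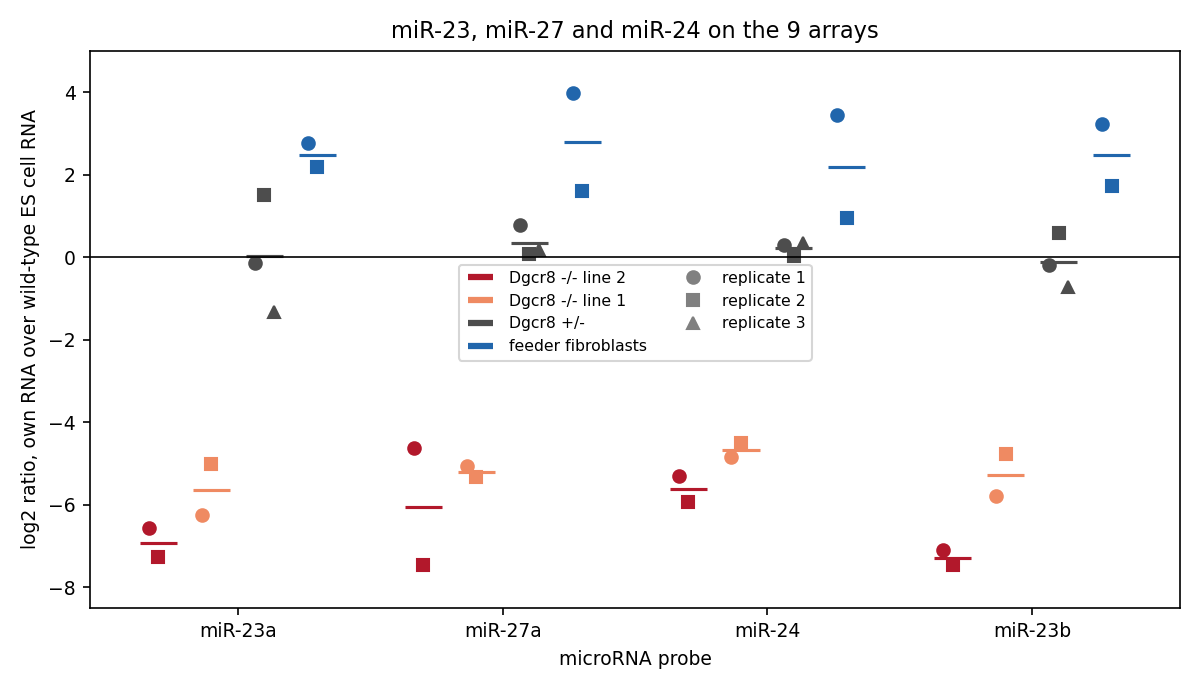
Log2 ratio over wild-type ES cell RNA (vertical axis) of the 4 probes on each array, with symbols for replicates, colours for groups and a bar at each group's mean. All knockout arrays lie at -4.50 or below, heterozygous arrays lie around 0, and all feeder arrays lie above 0.

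Against wild type, 4 of 4 members passed the test as lower in knockout cells, beside 89.7% of the 87 probes tested (78 probes). Their median difference was -5.95, close to the -5.98 of all probes tested. The members ranked 36 (miR-23b), 37 (miR-23a), 51 (miR-27a) and 58 (miR-24) of 87 from the lowest difference. Their loss was thus of the size seen across the array. With each array centred on the median of all its mouse probes, no member passed as lower, the differences were -0.63 for miR-23a, 0.018 for miR-27a, 0.50 for miR-24 and -0.64 for miR-23b, and the array split into 33 probes lower and 25 higher in knockout cells, in place of 78 and 2.

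Set against heterozygous knockout cells, homozygous knockout cells were again lower for 4 of 4 members, beside 90.8% of probes tested. The differences were -6.29 for miR-23a (limma, adjusted p = 4.72e-04), -5.96 for miR-27a (1.14e-05), -5.37 for miR-24 (1.23e-05) and -6.17 for miR-23b (1.46e-04). With the same centring no member passed, at -0.67 for miR-23a, -0.34 for miR-27a, 0.26 for miR-24 and -0.55 for miR-23b, and 27 probes passed as lower and 23 as higher (79 and 2 without centring). The difference of miR-23a was -5.55 without heterozygous replicate 2 and -6.97 without heterozygous replicate 3, and that of miR-27a was -6.67 without line 2 replicate 1 and -5.25 without line 2 replicate 2, all called.

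No member passed as different between heterozygous knockout and wild-type cells by limma, and neither did any other probe (0% of probes tested), with 7 of the 87 probes under an unadjusted p of 0.05. The differences, as mean ± SD over 3 arrays, were 0.02 ± 1.43 for miR-23a, 0.33 ± 0.38 for miR-27a, 0.22 ± 0.17 for miR-24 and -0.11 ± 0.66 for miR-23b. The 95% intervals ran -1.32 to 1.36 for miR-23a, -0.26 to 0.93 for miR-27a, -0.33 to 0.77 for miR-24 and -1.16 to 0.94 for miR-23b. A change of more than 2-fold in either direction therefore lay outside the intervals for miR-27a and miR-24. The interval of miR-23a reached past 2-fold in both directions, and that of miR-23b only for a fall.

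The intervals draw on the spread of the heterozygous arrays and on that between the 2 knockout lines. For miR-23a the SD was 1.43 over the heterozygous arrays and 0.91 between the line means. For miR-23b it was 0.66 and 1.42, so the lines were the more widely spread there. Over the heterozygous arrays, the SD of miR-23a ranked first of the 66 probes with 3 heterozygous values. That of miR-23b was the third, that of miR-27a 15th and that of miR-24 44th, beside a median SD of 0.29. Both miR-23 paralogues were highest on replicate 2 and lowest on replicate 3. In percent of wild type, miR-23a stood at 91.3%, 286% and 39.8% on replicates 1, 2 and 3, while miR-24 stood at 122%, 102% and 127%. Replicate 2 was the array with the dyes swapped, and the arrays came from 2 RNA preparations; the part of either in this spread was not tested.

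In feeder fibroblasts all 4 members were above wild-type ES cells on both arrays, as were 37 of 74 probes with 2 feeder values (50%). In the fit, 3 members passed as higher: miR-27a by 2.78 (6.87-fold; limma, adjusted p = 0.00148), miR-24 by 2.19 (4.57-fold; 0.00272) and miR-23b by 2.47 (5.55-fold; 0.0235). miR-23a was 2.48 higher (5.57-fold) and missed the threshold at an adjusted p of 0.0538. The background was 36.8% of probes called higher, the members' median difference was 2.48, and that of all probes was 0.15.

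The feeder test rests on 1 value, the mean of 2 arrays, with its spread taken from the other groups. The SD of the 2 feeder arrays themselves was 0.41 for miR-23a, 1.68 for miR-27a, 1.76 for miR-24 and 1.06 for miR-23b. The member that missed the threshold was thus the one whose feeder arrays agreed best. Which members passed therefore does not measure agreement between the feeder arrays. Without feeder replicate 1, only miR-27a still passed (1.60), and the other members stood at 2.19 (miR-23a), 0.95 (miR-24) and 1.72 (miR-23b). When arrays were centred on the median of all mouse probes, no member passed, at 1.23 for miR-23a, 1.53 for miR-27a, 0.94 for miR-24 and 1.22 for miR-23b, and 12 probes were higher and 43 lower in feeders in place of 32 and 32. Centred instead on the median of the probes complete on all arrays, 4 of 4 members passed as higher, at 3.13 for miR-23a, 3.43 for miR-27a, 2.84 for miR-24 and 3.13 for miR-23b, and 42 probes were higher and 29 lower.

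The feeder arrays differed from each other most at miR-24 and miR-27a. Replicate 2 minus replicate 1 was -2.49 for miR-24, the seventh largest gap of 74 probes, and -2.37 for miR-27a, the ninth largest. It was -1.50 for miR-23b and -0.58 for miR-23a, beside a median of -0.56 over all probes. The ratio over wild type was highest for miR-27a on replicate 1 and for miR-23a on replicate 2, while miR-27a lay above miR-24 on both. Replicate 2 was the dye-swapped array in the feeders and in both knockout lines, so the gaps between hybridisations cannot be told apart from dye orientation.

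**Figure D2:**
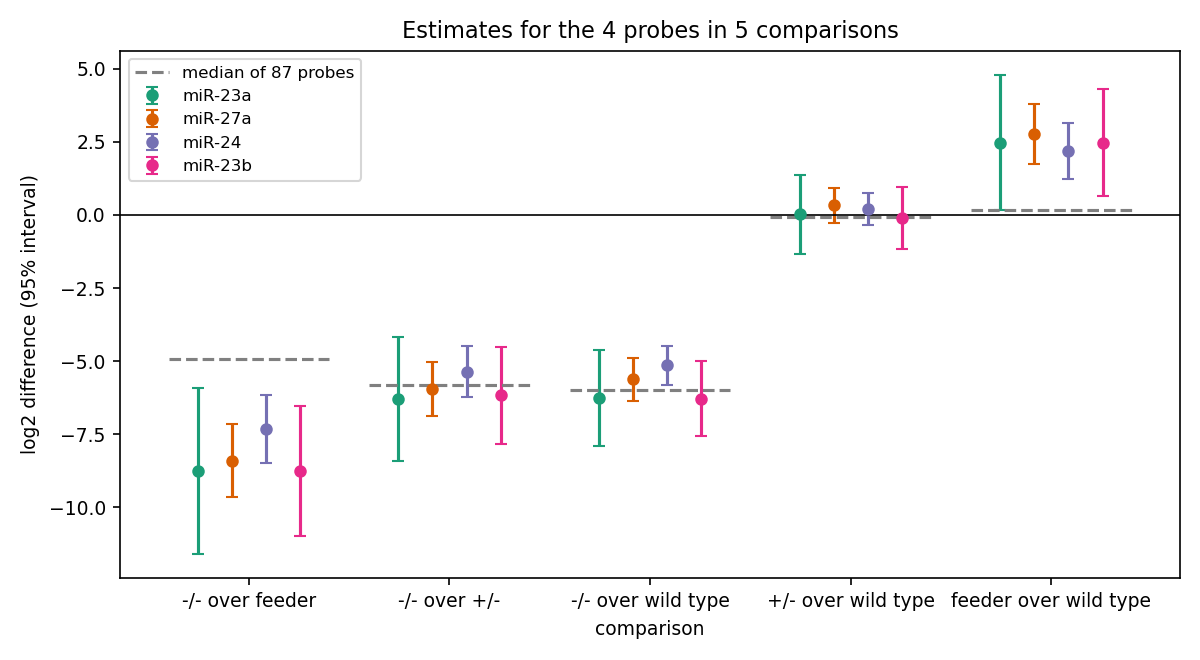
Fitted log2 differences (vertical axis) with 95% intervals for the 4 probes in 5 comparisons, with a dashed bar at the median of the 87 probes tested. The members lie near the median in knockout over wild type and knockout over heterozygous cells, below it in knockout over feeder cells, and above it in feeder over wild-type cells.

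The knockout signal was then set against that of the feeders, the comparison the study included for carried-over fibroblasts. Knockout cells held 0.232% of the feeder signal for miR-23a, 0.295% for miR-27a, 0.618% for miR-24 and 0.231% for miR-23b. Signal over background is not given, so how far these shares rest on floored knockout ratios is unknown. All 4 members passed as lower in knockout cells than in feeders, with log2 differences of -8.75, -8.41, -7.34 and -8.76 in the same order (limma, adjusted p = 5.08e-04, 2.58e-05, 2.58e-05 and 1.58e-04), beside 75.9% of probes tested. miR-23b, miR-23a and miR-27a ranked 8, 9 and 10 of 87 from the lowest difference and miR-24 ranked 20. Centred on the median of all mouse probes, no member passed, at -1.86 for miR-23a, -1.51 for miR-27a, -0.44 for miR-24 and -1.86 for miR-23b, and 10 probes were lower and 49 higher in place of 66 and 1. Without feeder replicate 1 the differences were -7.22 for miR-27a, -6.10 for miR-24 and -8.01 for miR-23b, and without feeder replicate 2 they were -9.59, -8.58 and -9.51, all called. That of miR-27a was -9.11 without line 2 replicate 1 and -7.70 without line 2 replicate 2, both called.

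Both knockout lines were below 1% of the feeder mean at every member. Line 2 held 0.149% for miR-23a, 0.219% for miR-27a, 0.444% for miR-24 and 0.115% for miR-23b. Line 1 held 0.361% for miR-23a, 0.396% for miR-27a, 0.859% for miR-24 and 0.463% for miR-23b. Line 2 was thus the lower one each time. Against feeder replicate 2 alone, the share of miR-24 reached 1.05% in line 2 and 2.03% in line 1, the highest found. For the other 29 probes that passed as higher in feeders, the knockout share ran 0.111% to 89.5% and its median was 0.660%, beside 0.263% as the members' median. On all 4 knockout arrays each member lay below both feeder arrays, as did 51 of the 67 probes with values on all 6 (76.1%). Of the 87 probes, 31% were called both lower in knockout cells and higher in feeders than in wild type, miR-27a, miR-24 and miR-23b among them.

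Other microRNAs known from fibroblasts and from ES cells were set beside the members. Of 13 probes on the array for other fibroblast microRNAs, 4 had enough values to be tested (miR21, miR22, miR29b and miR31). The untested ones had too few heterozygous or knockout values, and their feeder values ran 3.35 to 6.82. Of those tested, 4 of 4 were lower in knockout cells and higher in feeders than in wild type, with median differences of -4.32 and 3.52. Over all probes, 89.7% were called lower in knockout cells and 36.8% higher in feeders. The knockout count is thus near the share over all probes. The ES cell mir-290 cluster was lower in knockout cells (8 of 8 probes, median -7.52) and also in feeders (8 of 8, median -7.28), where 36.8% of all probes were called lower. How much of the knockout signal came from feeder RNA was not tested.

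The 2 knockout lines were compared next. At all 4 members the mean of line 2 lay below that of line 1, beside 28 of the 87 probes tested (32.2%), but no difference passed the test over all probes. The difference, line 2 minus line 1, was -1.28 for miR-23a (95% interval -3.14 to 0.58), -0.85 for miR-27a (-2.95 to 1.24), -0.95 for miR-24 (-2.54 to 0.64) and -2.005 for miR-23b (-3.46 to -0.55). The limma adjusted p was 0.698, 0.725, 0.725 and 0.209 in the same order, and 0% of probes passed. Unadjusted in limma, 13 probes were under 0.05, of which 2 were lower in line 2, miR-23b among them.

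The members nonetheless sat at the low end of the ranking. miR-23b ranked second, miR-23a sixth, miR-24 ninth and miR-27a 10th of 87 from the lowest difference, while the median of all probes was 0.29. For miR-23a, miR-24 and miR-23b both arrays of line 2 lay below both arrays of line 1, as they did for 7 of the 76 probes with all 4 values (9.21%). Each line is 1 RNA source, so this covers hybridisation spread and not the spread between lines.

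The gap was wider on the second hybridisation for all 4 members, while the whole array also moved between hybridisations. On replicates 2, line 2 minus line 1 was -2.26 for miR-23a, -2.13 for miR-27a, -1.44 for miR-24 and -2.70 for miR-23b, with a median of -0.15 over all probes and ranks of 6, 7, 13 and 3 of 83 from the lowest in that order. On replicates 1 the differences were -0.30 for miR-23a, 0.43 for miR-27a, -0.46 for miR-24 and -1.31 for miR-23b, with a median of 0.78 and ranks of 10, 28, 7 and 1 of 80. By rank, miR-24 and miR-23b were thus lower on replicates 1, and miR-23a and miR-27a on replicates 2. Only miR-27a changed sign between the hybridisations, and all 4 members were below the all-probe median on both. Of the other fibroblast microRNAs, miR21 differed by -1.64, miR22 by -1.17, miR29b by -1.39 and miR31 by 0.12, and none passed.

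**Figure D3:**
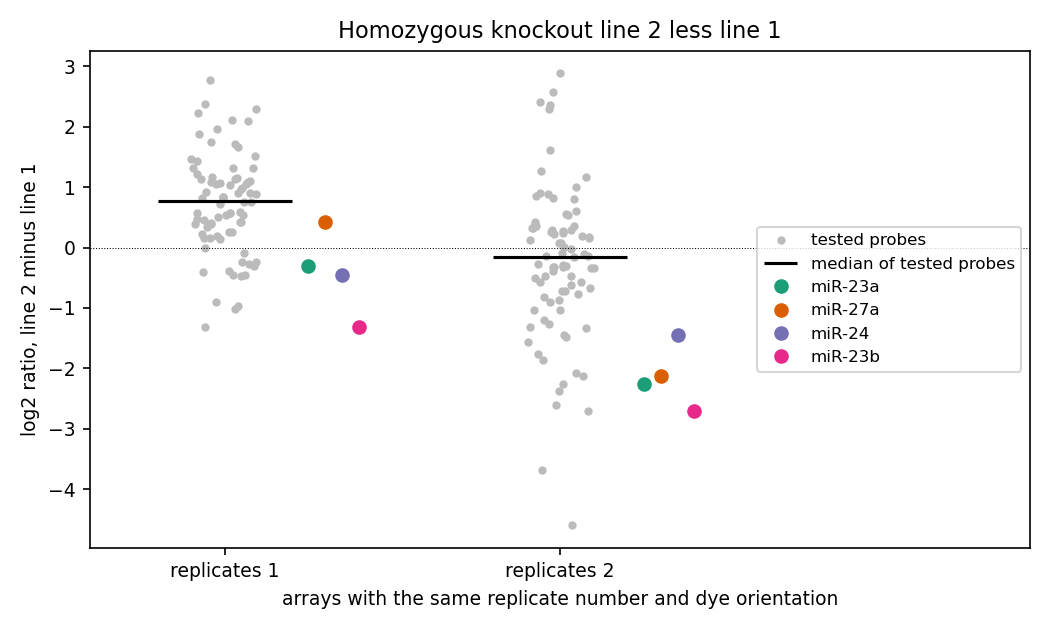
Line 2 minus line 1 log2 ratio (vertical axis) for arrays with the same replicate number, with grey points for tested probes, a bar at their median, and coloured points for the 4 members. The members lie below the median on both. On replicates 1 miR-27a lies above 0, and on replicates 2 all 4 lie lower than on replicates 1.

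The clusters were compared through their miR-23 paralogues. Within an array, miR-23a minus miR-23b was 0.55 and 0.20 in knockout line 2, -0.46 and -0.25 in knockout line 1, 0.05, 0.94 and -0.60 in heterozygous cells, and -0.46 and 0.47 in feeder fibroblasts. The sign was mixed in both the heterozygous and the feeder group, positive on both arrays of line 2 and negative on both arrays of line 1. Over 6 values (3 heterozygous arrays, 2 line means and the feeder mean) the mean difference was 0.07 with an SD of 0.54, with 4 above 0 and 2 below, and an exact two-sided sign-flip permutation test gave p = 0.719 (the smallest it can give is 0.0313). These count each heterozygous array as a sample, although the 3 came from 2 preparations. With any 2 of them averaged, over 5 samples, the mean ran -0.017 to 0.14 and the exact permutation p 0.5625 to 1, where the smallest possible is 0.0625. The table used here holds no other paralogue pair of the clusters, so this p stands alone and was not adjusted. Opposite differences, as in the 2 lines, cancel in a mean over all groups, so the test addresses only a difference common to the groups. Ratios over wild type compare changes of the paralogues from wild type, not their levels.

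The miR-23 paralogues were also the closest pair among the members. Their root mean square difference over the 9 arrays was 0.50, against 0.71 for miR-24 and miR-27a, 0.99 for miR-23b and miR-24, 1.03 for miR-23b and miR-27a, 1.16 for miR-23a and miR-27a, and 1.19 for miR-23a and miR-24. miR-23a was thus nearer to miR-23b, of the other cluster, than to miR-27a of its own. The pairs share arrays and dyes, and how far cross-hybridisation between the miR-23 paralogues enters this was not tested.

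**Figure D4:**
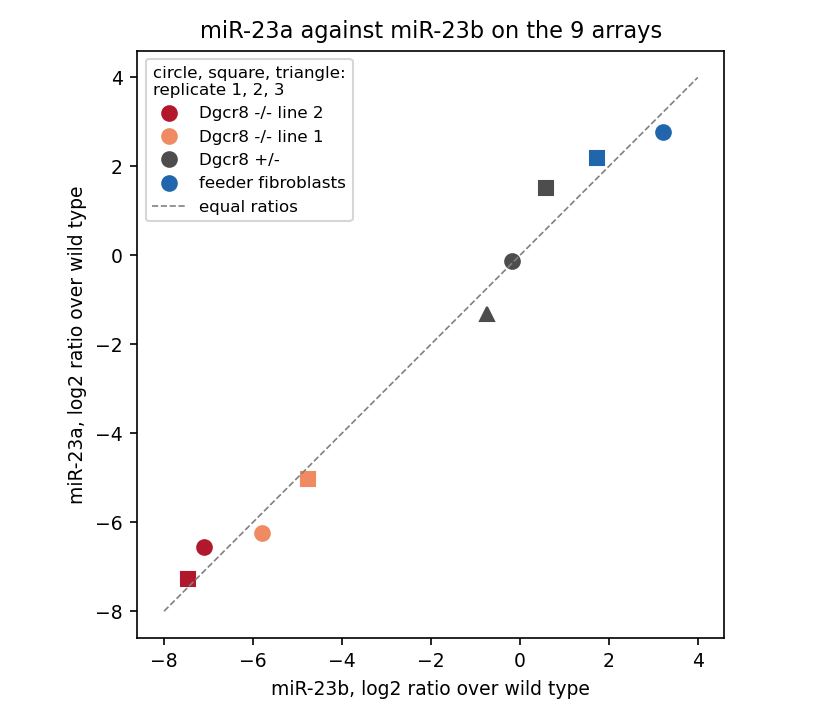
miR-23a (vertical axis) against miR-23b (horizontal axis), both as log2 ratio over wild type, on the 9 arrays, with a dashed line of equal ratios. The points follow the line in all groups, with the largest distance, 0.94, on heterozygous replicate 2.

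Across the arrays the probes most like a member were found by Pearson r of log2 ratios, among 80 probes. This r mostly follows the gap between knockout and other arrays, which nearly all probes share: its median over all probes was 0.846 for miR-23a, 0.885 for miR-27a, 0.887 for miR-24 and 0.869 for miR-23b. For miR-24 the closest were miR26a-1 (r = 0.995), miR21 (0.992) and miR127 (0.988), all over 9 arrays. For miR-27a they were miR335 (0.992, 9 arrays), miR30b (0.990, 8 arrays) and miR26a-1 (0.987, 9 arrays). For miR-23a they were miR125a (0.984, 8 arrays), miR337 (0.973, 8 arrays) and miR127 (0.971, 9 arrays), and for miR-23b miR125a (0.984, 8 arrays), miR26a-1 (0.977, 9 arrays) and miR127 (0.977, 9 arrays).

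These probes were chosen on the same arrays, so their group means only describe them. miR26a-1 averaged -5.85 in line 2, -5.28 in line 1, 0.27 in heterozygous cells and 2.46 in feeders. miR125a averaged -5.76 in line 2, -5.20 in line 1, 0.35 in heterozygous cells and 4.10 in feeders.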

How the data were processed

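Small RNA was labelled and hybridised with the NCode microRNA system, per the labels' protocols. The deposited values are log10 ratios, with the base read from the values of 1 array and the direction unstated, which the authors normalised to positive control RNAs, per the series' design text. A knockout line 1 column held 2 spreadsheet errors and was classed as other in the record of deposited units, and a feeder column held 1 error; those cells and null cells were left out. No label gives the background correction or the probe filter. Values were converted to log2. Probes were matched to RefSeq microRNA names (GRCm38.p6), and 11 unmatched probes were left out of fits.

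Probes with values on at least 2 heterozygous arrays, in both lines and on at least 1 feeder array (87) were fitted with limma 3.58.1 in R 4.3.3, with 6 values per probe: each heterozygous array, the mean of each knockout line and the mean of the feeders. Adjusted p is Benjamini-Hochberg over 87 probes, with a threshold of 0.05. Lines were compared over the 9 single arrays. Scripts were tested on simulated data. Alternatives covered centring, averaging of arrays, blocks, dye, filters and leaving out arrays. Named probes were all members and, for each, the 3 probes of highest r over at least 7 arrays. Members and lists were chosen with earlier results of these data known. The number of arrays limits the precision.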

Additional observations from a re-analysis of the deposited data

How the results depend on the processing

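Of the settings tried, 18 of 20 alternatives kept all 4 members lower in homozygous knockout than in wild-type cells, and the exceptions were the 2 that centred each array. Centring moved the median difference of all probes to -0.34 (all mouse probes) or 0.50 (mouse probes complete on all arrays), against -5.98 as deposited. It tests members against the rest of the array, so a loss shared by most probes is removed by construction.

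Centred on all mouse probes, 0 members passed in knockout over wild type (miR-23a -0.63, miR-23b -0.64, miR-24 0.50, miR-27a 0.018), 0 in knockout over heterozygous cells (-0.67, -0.55, 0.26 and -0.34 in the same order), 0 in knockout over feeder cells (-1.86, -1.86, -0.44 and -1.51) and 0 in feeder over wild-type cells (miR-23b 1.22, miR-24 0.94, miR-27a 1.53). Centred on complete probes, 0 members passed as lower in knockout over wild type (miR-23a 0.20, miR-23b 0.19, miR-24 1.33, which passed as higher, and miR-27a 0.85), 0 in knockout over heterozygous cells (0.13, 0.25, 1.06 and 0.46) and 2 in knockout over feeder cells, where miR-23a (-2.93) and miR-24 (-1.51) were lost. The counts over all probes then were 17 lower and 39 higher in knockout over wild type, 13 and 31 over heterozygous cells and 23 and 40 over feeders, and with only complete probes (58 tested) 19 probes were higher in feeders.

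miR-23a passed as higher in feeders in 16 of 20 alternatives: at 2.48 with arrays as single values, with the line as a random block, with complete probes only, with no heterozygous minimum and with any 2 heterozygous arrays averaged, at 2.44 with a dye term, at 2.25 with the replicate block (adjusted p = 0.00670) and at 3.13 centred on complete probes, where all 4 members passed and 42 probes were higher and 29 lower. Its adjusted p ran 1.35e-04 to 0.333 (limma). The settings with arrays as single values, with or without a block or dye term, enter duplicate hybridisations of 1 line as separate values. The random block had a correlation of -0.055, so it did not discount them. Passing in those settings is therefore not evidence from more RNA samples. With 1 array left out, knockout over wild type ran -6.58 to -5.97 for miR-23a, -6.54 to -6.03 for miR-23b, -5.31 to -4.99 for miR-24 and -6.33 to -4.92 for miR-27a, with 4 members called each time. Feeder values then ran 2.19 to 2.77 for miR-23a, 1.72 to 3.22 for miR-23b, 0.95 to 3.43 for miR-24 and 1.60 to 3.96 for miR-27a, and 1 to 4 members passed. miR-23b was lost without feeder replicate 1 (adjusted p = 0.0802) and without knockout line 1 replicate 1 (0.0585), and miR-24 without feeder replicate 1 (0.0676); a lone feeder array was assumed to vary like the other groups. The cause was not tested. Without heterozygous replicate 2, 20 of 68 probes tested were higher in feeders, in place of 32 of 87.

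No member passed in heterozygous over wild type in 20 alternatives or in line 2 over line 1 in any alternative run; the line difference of miR-27a ran -2.27 to 0.56 with 1 array left out. Same-numbered arrays correlated from 0.05 to 0.39 in their deviations from group means, over 0.1 in 6 of 12 pairs. Differently numbered arrays ran -0.39 to 0.11. In groups of 2 arrays the deviations mirror each other, so part of that contrast is built in. In the knockout lines and feeders the number also goes with dye orientation, so pairing and dye cannot be told apart. The numbers were not taken to pair the samples in the main fit. The replicate block gave knockout over wild type of -6.50 for miR-23a, -6.39 for miR-23b, -5.13 for miR-24 and -5.66 for miR-27a, all called. Averaging 2 heterozygous arrays in the miR-23a minus miR-23b test was chosen after seeing the data. The miR-27a minus miR-27b test was not run, since the table used here holds no miR-27b probe. Signal over background is not given, so how far the lowest ratios are floored is unknown.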

Other observations

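Outside the comparisons, 2 further probes bear on these microRNAs. The probe miR189, a RefSeq synonym of Mir24-1 (its 5p arm), had a value on 1 array only, 2.35 on feeder replicate 2. miR-128-3p begins with the letters UCACAGU, the seed of miR-27, one base earlier than miR-27 does. Its probe miR128a had values on 6 arrays and was not tested: -4.46 and -8.31 in knockout line 2, -5.43 and -6.42 in knockout line 1, and -0.25 and -0.29 on heterozygous replicates 2 and 3, with no feeder value.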
